A study of Mus musculus with 9 samples.

Results

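Apolipoproteins are the protein part of the particles that carry lipid in blood. The 10 genes described here are Apoa1, Apoa2, Apoa4, Apoa5, Apob, Apoc1, Apoc3, Apoe, Apoh and Apom, chosen by symbol from the 24421 gene symbols of the count tables, and each is set out as its level in livers with O-GlcNAc transferase (OGT) deleted against its level in control livers. OGT places the sugar N-acetylglucosamine on proteins of the nucleus and cytoplasm. RNA came from whole liver of C57BL/6J mice of 5 weeks of age that had been fasted for 6 h: 5 control littermates (labelled Wildtype, here WT) and 4 mice labelled OGT-deficient. Mice of both sexes were used, and how and in which cells OGT was deleted, and which mouse was of which sex, is not given in the sources used here. In bulk tissue, fewer cells of a type and less RNA per cell cannot be told apart, and this holds for every level given here.

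The liver makes most plasma apolipoproteins and sends them out on several kinds of particle. ApoB, a very large protein that never leaves its particle, is loaded with triglyceride in the endoplasmic reticulum and leaves as very low density lipoprotein, while ApoA-I and ApoA-II form the frame of high density lipoprotein (HDL), which returns cholesterol to the liver. The smaller exchangeable apolipoproteins move between particles: ApoC-I and ApoC-III slow the clearance of triglyceride-rich particles, ApoA-V speeds it, and ApoE is the ligand by which receptors take remnants up.

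Of the 10 genes, Apoa4 rose 10.4-fold, Apom, Apoa1, Apoa2 and Apoh fell, and Apob, Apoa5, Apoc1, Apoc3 and Apoe were not called. All log2 fold changes and their adjusted p come from the quasi-likelihood test of edgeR, with Benjamini-Hochberg adjustment over all 14104 genes tested and a threshold of 0.05, unless another test is named. Transcripts for the frame proteins of HDL were thus lower in livers in which the transcript for the frame of very low density lipoprotein was not called. Calls were common among all genes: 61.1% of them were called, 31.6% as higher and 29.4% as lower. So 5 of 10 members called is no larger a share than the background. By direction 1 of 10 was higher and 4 of 10 were lower, a split that was not tested against these shares. The median log2 fold change was -0.12 over the 10 members and 0.02 over all genes tested. The groups did not overlap for 5 of 10 members, against 51.3% of all genes.

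Of these genes, 3 are transcribed in the same direction within a single cluster on chromosome 9, and they did 3 different things. The DNA just before each is shown because Apoa1, Apoa4 and Apoa5 are close neighbours that fell, rose and were not called. The letters are RefSeq's upstream sequence (GRCm38.p6, plus strand, 5′ to 3′), cut where the first GENCODE exon begins, and capitals mark the motifs found by exact match on either strand.
Apoa1, chr9:46228380-46228579: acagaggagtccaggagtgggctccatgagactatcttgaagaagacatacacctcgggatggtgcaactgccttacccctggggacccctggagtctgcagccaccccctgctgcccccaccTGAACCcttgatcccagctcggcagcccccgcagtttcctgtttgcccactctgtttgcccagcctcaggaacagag
Apoa4, chr9:46240594-46240695: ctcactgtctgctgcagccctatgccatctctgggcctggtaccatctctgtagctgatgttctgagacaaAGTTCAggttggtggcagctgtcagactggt
Apoa5, chr9:46268383-46268632: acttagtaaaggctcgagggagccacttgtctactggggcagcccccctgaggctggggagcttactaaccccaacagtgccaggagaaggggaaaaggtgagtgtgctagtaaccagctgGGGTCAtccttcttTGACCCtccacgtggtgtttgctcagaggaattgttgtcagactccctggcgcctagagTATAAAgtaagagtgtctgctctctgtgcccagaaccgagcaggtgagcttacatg
The marked TGAACC before Apoa1 is GGTTCA read on the minus strand, the marked letters before Apoa4 are AGTTCA, and those before Apoa5 are GGGTCA on both strands together with TATAAA, the form of the box that places many start sites. The window of Apoa1 also holds AGTTCA, on the minus strand at -42 from the RefSeq start and past the letters printed, so that Apoa1 and Apoa4 share this form. These 3 elements, TATAAA aside, are forms of the short element that nuclear receptors such as HNF4 and the PPARs bind, and these forms were added to the search after the sequences had been seen. Such short motifs are common: of 32851 RefSeq windows of 250 bases before and 50 bases after a start, GGTTCA is in 10.4%, AGTTCA in 14.0%, GGGTCA in 13.7% and TATAAA in 13.6%. The form AGGTCA, held by 16.3% of windows, was found in windows of Apoa2 and Apoh, while GGTTCA also lies in windows of Apoa2, Apob and Apoe, and GGGTCA in windows of Apoe and Apom. The longer HNF4-type CAAAGTCCA is in 0.475% of windows and in no window of the members that have one, which says only that these letters are not there. Further motifs searched were TGTTTAC (forkhead factors, 3.65% of windows), found for Apoa2, Apoe and Apoh, GTTAAT (HNF1, 7.10%), found for Apoe, and CCAAT (37.4%), found for Apoa2. RefSeq windows were matched for 8 of the 10 members, in 12 windows in all, and no TATAAA lies in the windows of Apoa1, Apoa4, Apoh or Apom. Some windows lie inside the annotated gene: those with the Apoe matches other than GGGTCA, that of Apoh, and all but 1 base of that of Apom. The TGTTTAC match for Apoe spans a RefSeq start, from -5.

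The libraries held 32337861 to 54130901 counts assigned to genes. Levels are given as CPM (counts scaled to library size, with TMM factors). Scaled to plain library totals, without these factors, a count of 3 equalled 0.0554 to 0.0928. The members are so abundant that their lowest count in any library was 2876, and counting error is small beside the spread between mice. Together they took 5.02 to 5.87% of counts in WT and 5.64 to 6.00% in OGT-deficient libraries. Ogt itself stood at 61.6 ± 10.4 CPM (SD, n = 5) in WT and 16.9 ± 2.70 CPM (SD, n = 4) in OGT-deficient liver. No library was found to be a copy of another. The labels name no batch, but some alignment measures differed between the groups without overlap. Alignments that were not unique numbered at least 16167401 in every WT library, while no OGT-deficient library had more than 9317390. The share that fell in no gene was highest at 9.72% among WT libraries, and its lowest value among OGT-deficient libraries was 9.96%. Whether these differences bear on the levels given here was not tested. All 26 genes of other proteins that hepatocytes secrete passed the low-count filter, as did all 10 members. The scaling matters for all values below, since plain library totals in place of TMM factors shift the median over all genes by 0.339 on the log2 scale.

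Apoa1 encodes the main frame protein of HDL and the activator of the cholesterol-esterifying enzyme LCAT (gene on chromosome 9, 46228580 to 46230466, plus strand, GRCm38). It measured 11556, 13705, 12108, 11692 and 10561 CPM in WT 1 to 5, against 4442, 5334, 4894 and 6408 CPM in OGT-deficient 1 to 4 (the order kept below). Every OGT-deficient library was far below every WT library, and the highest of them, OGT-deficient 4, did not reach the lowest WT value. WT livers averaged 11924 ± 1146 CPM (SD, n = 5) and OGT-deficient livers 5269 ± 842 CPM (SD, n = 4). Apoa1 thus fell by 1.18 on the log2 scale (edgeR adjusted p = 1.15e-05, SE 0.14), which leaves 44.2% of the WT level.

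Apoa2 encodes the other abundant protein of HDL (chromosome 1, 171225054 to 171226379, plus strand). Its levels were 4648, 8353, 6669.6, 5173 and 6976 CPM in WT livers, against 3434, 3549, 3357 and 3918 CPM without OGT. WT libraries ranged widely, with the highest 1.80 times the lowest, while OGT-deficient libraries lay close together below all of them. Its log2 fold change was -0.84 (edgeR adjusted p = 0.000709, SE 0.16), with means of 6364 ± 1482 and 3564 ± 248 CPM.

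Apom encodes the lipocalin of HDL that carries the signalling lipid sphingosine-1-phosphate (chromosome 17, 35128997 to 35132050, minus strand). It was at 361, 390.2, 318, 349 and 314 CPM in WT livers, against 60.6, 121, 130.1 and 128 CPM without OGT. OGT-deficient 1 stood well below the other OGT-deficient libraries, and all 4 were under every WT library. Group means were 346 ± 31.5 and 109.9 ± 33.1 CPM, so that Apom fell by 1.66 on the log2 scale (edgeR adjusted p = 1.09e-05, SE 0.19). Without OGT-deficient 1 the log2 fold change was -1.47 (adjusted p = 4.58e-07). Of the members it fell most, and 311 of the 14104 genes had a lower log2 fold change.

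Apoh encodes beta-2-glycoprotein I, a plasma protein that binds negatively charged phospholipid (chromosome 11, 108343354 to 108414396, plus strand). Its levels were 2122, 2119, 2287, 2039.9 and 1893 CPM in WT livers, against 1531, 1558, 1505 and 1659 CPM without OGT. The 2 groups were separate, though by less than for the HDL genes. The log2 fold change was -0.42 (edgeR adjusted p = 0.00145, SE 0.091). With plain library totals it was -0.08 (adjusted p = 0.404), so this call rests on the scaling. A minus-strand gene, Prkca, covers 1.88% of its exonic bases, and whether counting used the strand is not given in the sources used here.

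Apoa4 encodes ApoA-IV, an exchangeable protein of chylomicrons and HDL that in mice is made in small intestine and in liver (chromosome 9, 46240696 to 46243459, plus strand). Its levels were 216, 215, 188, 209 and 239 CPM in WT livers, against 2210.4, 2085, 1074 and 3481 CPM without OGT. WT livers were nearly alike, while the OGT-deficient livers differed among themselves, with the highest 3.24 times the lowest, and the lowest of them was still far above every WT library. Group means were 213 ± 18.3 and 2213 ± 987 CPM, so that Apoa4 rose by 3.37 on the log2 scale (edgeR adjusted p = 3.49e-07, SE 0.25). Leaving out a library gave 3.04 (without OGT-deficient 4) to 3.61 (without OGT-deficient 3). Of all genes tested, 240 had a larger log2 fold change.

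Markers of enterocytes, the other cells known for Apoa4, were read in the same libraries. Of 10 such genes, Alpi, Cdx1 and Cdx2 were at 0 in all 9 libraries, and Sis, which encodes sucrase-isomaltase, had 1 count in all. Summed over the 10 genes the level was 193 to 219 CPM in WT livers and 195 to 240.2 CPM without OGT. Nearly all of that sum was Anpep (148 ± 12.9 and 99.1 ± 22.1 CPM) and Fabp2, which moved in opposite directions. The sum therefore does not show how the scarcer markers moved, such as Slc5a1 (1.09 ± 0.291 and 7.82 ± 2.07 CPM). Of the 4 tested, Fabp2 (by 0.86 on the log2 scale), Slc5a1 (by 2.84) and Vil1 (0.253 ± 0.105 to 1.05 ± 0.609 CPM, with overlapping groups) rose, and Anpep fell by 0.58 on the log2 scale. Fabp2, a fatty acid binding protein gene also read in WT liver, went from 61.4 ± 11.5 to 111 ± 13.4 CPM.

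**Figure D1:**
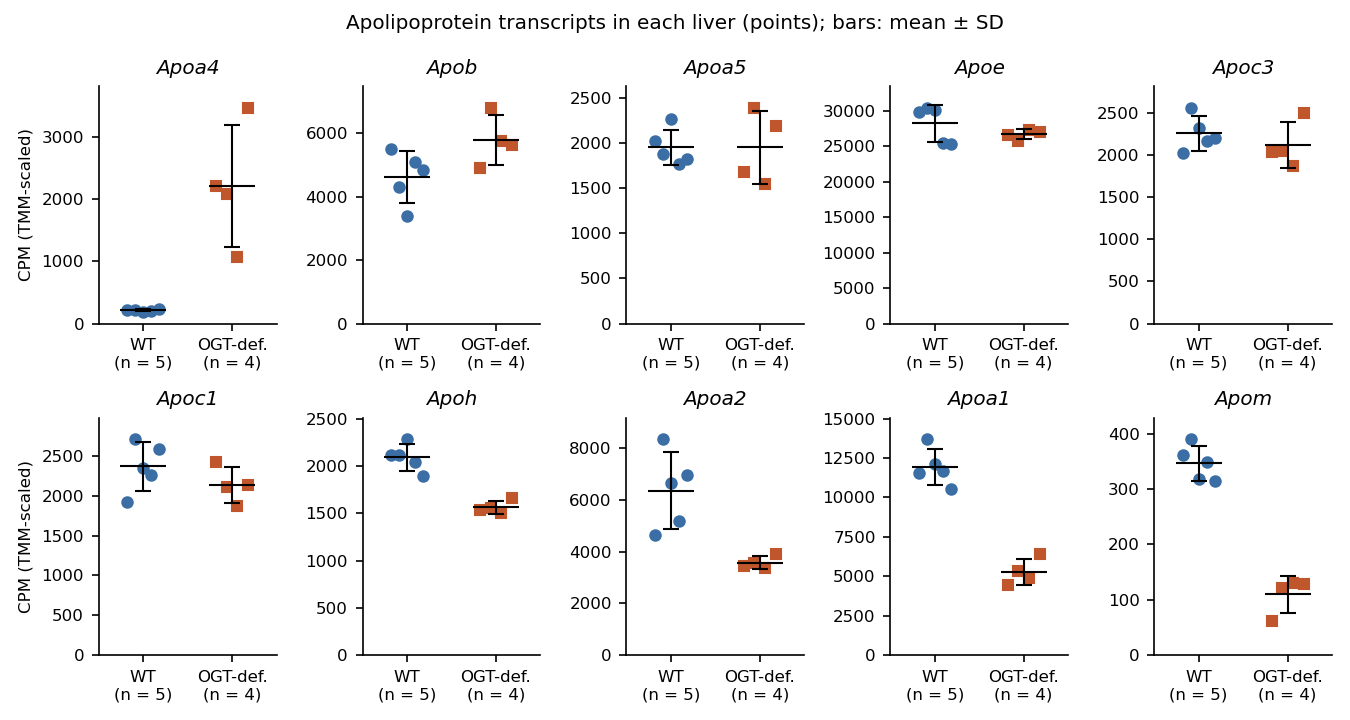
CPM (TMM-scaled, linear axis from 0) of the 10 apolipoprotein genes in each of 5 WT (circles) and 4 OGT-deficient (squares) livers, with the mean and SD as bars. The groups are separate for Apoa4, Apoh, Apoa2, Apoa1 and Apom, and they overlap for the other 5 genes.

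Apob, the frame of very low density lipoprotein (chromosome 12, 7977648 to 8016835, plus strand), measured 5499.8, 4315, 3393, 5090.4 and 4824 CPM in WT livers, against 4888, 6804, 5748 and 5641 CPM without OGT. Its groups overlapped through OGT-deficient 1, which lay within the WT range, while the other 3 OGT-deficient libraries were above every WT value. The log2 fold change was 0.32 (SE 0.15, 95% interval -0.0033 to 0.64, edgeR adjusted p = 0.0796), so Apob missed the threshold. It was called higher with upper-quartile factors (0.44, adjusted p = 0.0175), with plain library totals (0.65, adjusted p = 0.000967) and without WT 1 (0.39, adjusted p = 0.0425).

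Apoe encodes the remnant ligand, made by hepatocytes and also by macrophages (chromosome 7, 19696109 to 19699188, minus strand). Its levels were 29813, 30431, 30083, 25497 and 25322 CPM in WT livers, against 26599.9, 25673, 27282 and 27025 CPM without OGT. The OGT-deficient values lay inside the WT range, with a log2 fold change of -0.08 (SE 0.13, 95% interval -0.35 to 0.19, edgeR adjusted p = 0.579). In these libraries 12 of 15 markers of recruited macrophages rose and 1 fell, and their summed level was 199 to 295 CPM in WT livers and 514 to 727 CPM without OGT. For 12 markers of Kupffer cells, the resident macrophages, the sums were 842 to 1154 and 733 to 1219 CPM, with 3 higher and 2 lower (0 to 5 higher with a library left out, 0 without OGT-deficient 2). With plain library totals 8 of these were higher and 0 lower, and with upper-quartile factors 5 were higher and 2 lower. Their part in the level of Apoe was not tested.

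Apoc1 (chromosome 7, 19689481 to 19692660, minus strand) ranged from 1924 to 2710.4 CPM, with a median of 2353, in WT and from 1875 to 2420.0 CPM in OGT-deficient liver. Its log2 fold change was -0.15 with a 95% interval of -0.41 to 0.11. Apoc3 (chromosome 9, 46232933 to 46235636, minus strand), whose protein inhibits lipoprotein lipase, ranged from 2018 to 2559.5 and from 1869 to 2499.7 CPM, with a log2 fold change of -0.09 and an interval of -0.33 to 0.15. Apoa5 (chromosome 9, 46268633 to 46271919, plus strand), whose protein has the opposite action on that lipase, measured 2018, 1882, 2261, 1764 and 1827 CPM in WT livers, against 1683, 2392, 1546 and 2184 CPM without OGT. OGT-deficient 1 and 3 lay below the WT range, OGT-deficient 2 above it and OGT-deficient 4 within it, and the interval of the log2 fold change ran from -0.30 to 0.30. The intervals for Apoe, Apoc1, Apoc3 and Apoa5 leave out a 2-fold change either way, but a miss of the threshold does not show that the levels are the same. With plain library totals Apoa5 (0.33, adjusted p = 0.0298) and Apoc3 (0.24, adjusted p = 0.0417) were called higher. The sign for Apoe and Apoc3 turned with upper-quartile factors, and that for Apoe, Apoc3 and Apoc1 with library totals.

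**Figure D2:**
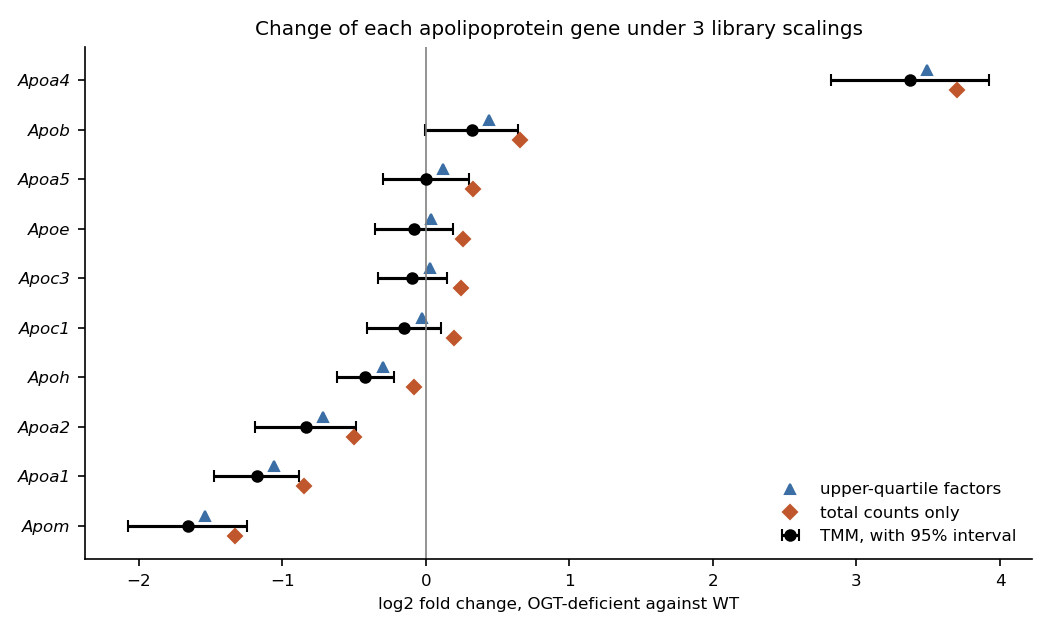
Log2 fold change (OGT-deficient against WT) of each member with TMM scaling and its 95% interval (circles), with upper-quartile factors (triangles) and with total counts only (diamonds). Moving the scale shifts all members together, so that Apoa4 stays far to the right and Apom, Apoa1 and Apoa2 stay to the left of 0, while Apoh comes to -0.08 and Apob to 0.65 with total counts.

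Ratios between members within a library do not depend on scaling. Of 45 pairs, 33 changed in a two-sided exact permutation test over the 9 libraries (adjusted p = 0.0230 to 0.0433 over the 45 pairs), and the groups did not overlap for 31. The smallest p that 126 splits allow is 0.0159. Apoa1, Apoa4 and Apom each changed against all 9 other members, so unequal change of these genes does not rest on how libraries were scaled. Of the 10 pairs among Apob, Apoe, Apoc1, Apoc3 and Apoa5, none was called, with 0 at an unadjusted p under 0.05. Of the 6 pairs among the genes that fell, 5 changed, the exception being Apoa2 with Apoh (difference of log2 ratios -0.39, exact permutation p = 0.0794, adjusted p = 0.102). Apoa1 fell more than Apoa2, by 0.38 on the log2 scale (exact permutation p = 0.0317, adjusted p = 0.0433), with overlapping groups. The widest change was that of Apoa4 against Apom, whose CPM ratio was 0.616 in WT and 19.4 in OGT-deficient liver. With any OGT-deficient library left out, the smallest p becomes 0.0357 and no pair passes the adjusted threshold, though 31 or 32 pairs still had groups that did not overlap.

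**Figure D3:**
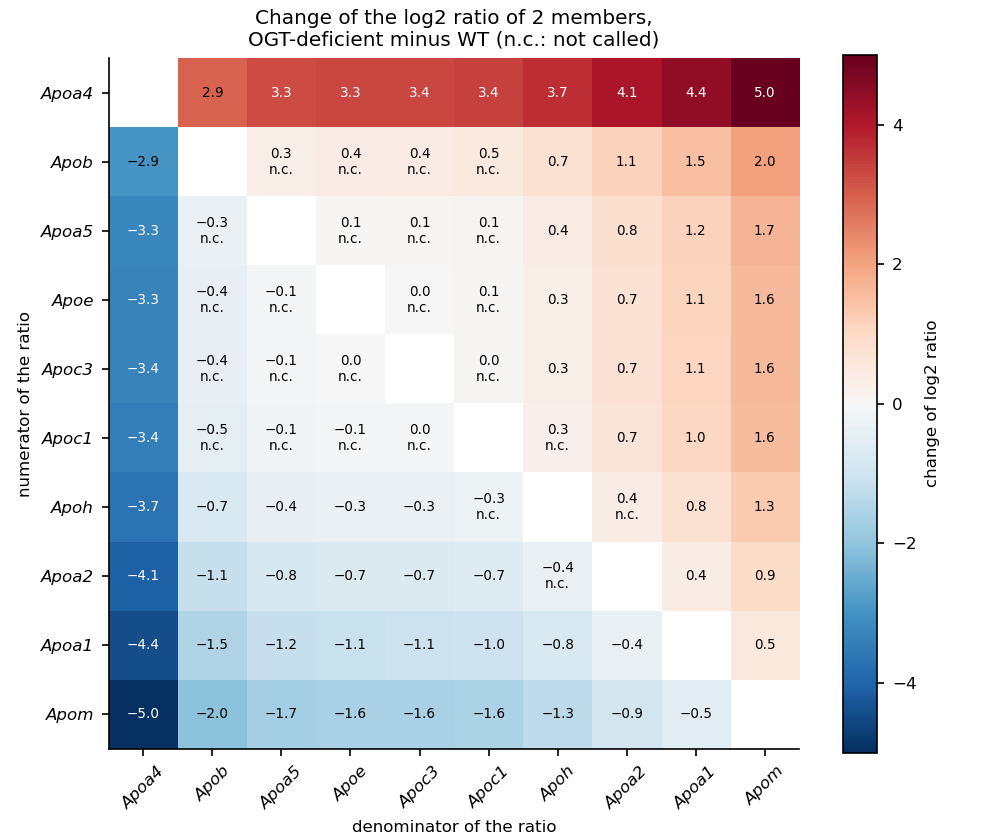
Change of the within-library log2 ratio of each pair of members (row gene over column gene), OGT-deficient minus WT, with red for a higher and blue for a lower ratio and n.c. for pairs not called. The row of Apoa4 is red throughout and that of Apom blue throughout, and the block of Apob, Apoa5, Apoe, Apoc3 and Apoc1 holds 10 pairs that were not called.

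The cluster on chromosome 9 holds Apoa1, Apoc3, Apoa4 and Apoa5 within 43340 bases (46228580 to 46271919), with Apoc3 on the strand opposite to the others. The count ratio of Apoa1 to Apoa4 was 53.6, 63.8, 64.3, 55.9 and 44.1 in WT and 2.01, 2.56, 4.56 and 1.84 in OGT-deficient liver. The ratio thus dropped in every OGT-deficient library, from a mean of 56.4 ± 8.33 to 2.74 ± 1.25. Apoa1 over Apoc3, its nearest neighbour, was 5.30 ± 0.333 in WT and 2.49 ± 0.208 in OGT-deficient liver, and Apoa4 over Apoc3 was 0.0954 ± 0.0127 and 1.02 ± 0.337. Apoa5 over Apoc3 was 0.871 ± 0.113 and 0.924 ± 0.164, with overlapping ranges. The genes beside the cluster, Sik3 (log2 fold change -0.10), Zpr1 (-0.20) and Bud13 (-0.01), were not called.

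On chromosome 7 the ratio of the neighbours Apoc1 and Apoe was not called. The pair lies within 9708 bases (19689481 to 19699188), and their count ratio was 0.0845 ± 0.0140 in WT and 0.0802 ± 0.00917 in OGT-deficient liver (difference of log2 ratios -0.07, exact permutation p = 0.667, adjusted p = 0.698). Apoc4, a further apolipoprotein gene of that cluster, fell by 0.48 on the log2 scale (373 ± 32.0 to 266 ± 10.2 CPM), and Tomm40, a mitochondrial import gene on the far side of Apoe, fell by 0.80. Beyond the plotted stretch Bcam rose by 2.04, Cblc by 0.91 and Relb by 0.60 on the log2 scale, and Clasrp fell by 0.62, so the neighbours moved both ways. With plain library totals Apoc4 was not called (-0.14, adjusted p = 0.172). Apoc2, whose protein activates lipoprotein lipase, was listed at 3.09 ± 1.08 and 2.14 ± 0.423 CPM and was not called. The files also list a joined Apoc4-Apoc2 symbol, and how reads were shared between these entries is not given in the sources used here, which leaves the low level of Apoc2 uncertain.

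**Figure D4:**
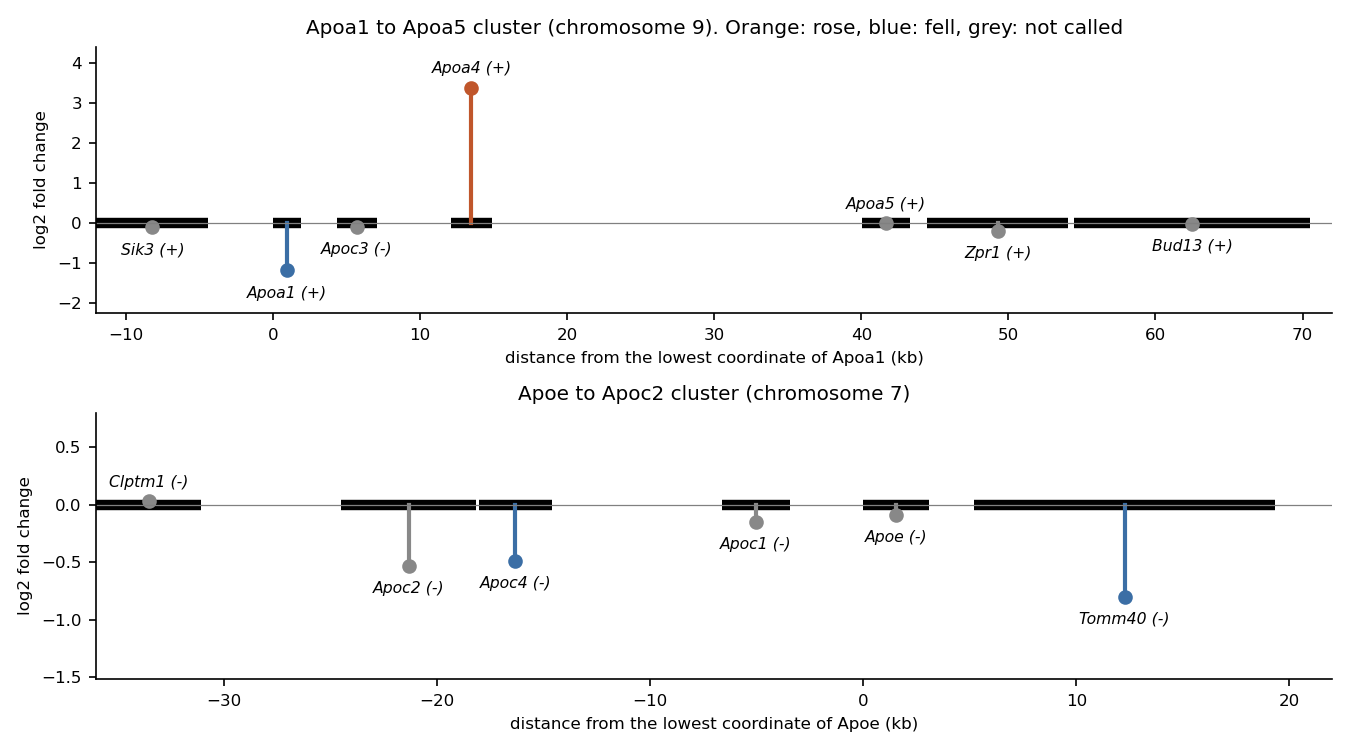
Log2 fold change (OGT-deficient against WT) of the genes in and around the apolipoprotein clusters of chromosome 9 (top) and chromosome 7 (bottom), against distance in kilobases. Gene bodies are black bars to scale, except that Sik3 and Clptm1 are cut at the edge of the plot, and the strand is in brackets. Apoa4 stands high and Apoa1 low on chromosome 9, with Apoc3 between them near 0, while Apoe and Apoc1 both lie near 0 on chromosome 7.

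Levels of different genes were set in order as CPM per kilobase of the longest annotated transcript. In WT the order was Apoe (20049), Apoa2 (12286), Apoa1 (11521), Apoc1 (4449), Apoc3 (3177), Apoh (1758), Apoa5 (776), Apom (342), Apob (332) and Apoa4 (118 CPM per kilobase). Neighbours in that order did not overlap, except Apoa2 with Apoa1 and Apom with Apob. In OGT-deficient liver Apoa4 reached 1219 ± 544 CPM per kilobase and went from rank 10 to rank 7, overlapping both Apoh (1314) and Apoa5 (776), while Apom (108) went from rank 8 to rank 10. Apoe stayed first at 18924 CPM per kilobase, and its margin over Apoa2 went from 1.63 to 2.75 times as a ratio of means. Apoa1 (5091), which had been 2.59 times Apoc1 in WT, overlapped it (4010.1). With the union of exons as the length, Apoa4 ranked 6 in OGT-deficient liver.

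The make-up of the members' counts moved accordingly. Apoa1 supplied 19.7 ± 0.916% of the members' counts in WT livers and 10.2 ± 1.09% without OGT, Apoa4 0.356 ± 0.0461% and 4.25 ± 1.70%. The share of Apoe was 46.7 ± 2.17% and 52.0 ± 3.11%, and that of Apob 7.73 ± 1.66% and 11.2 ± 1.49%. These are shares of counts, to which long transcripts give more. Summed over the 10 genes the level was 60364 ± 4261 CPM in WT livers and 51332 ± 2737 CPM without OGT. As a share of all counts assigned to genes the means were 5.44% and 5.84%, so the direction of the sum turns with plain library totals.

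**Figure D5:**
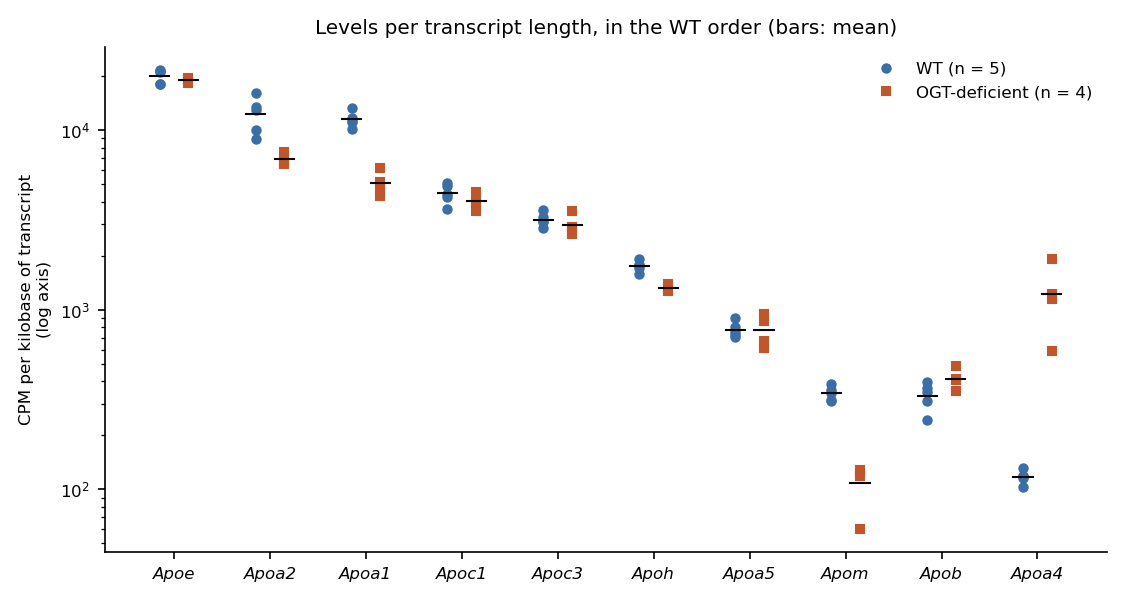
CPM per kilobase of transcript on a log axis for the 10 members in each WT (circles) and OGT-deficient (squares) liver, in the WT order, with bars for the means. Apoa4 rises from the lowest place in WT to the level of Apoh and Apoa5, and Apom drops to the lowest place.

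Genes of other plasma proteins were mostly lower in these livers, which gives a scale for the members. Abundant genes of all kinds mostly fell as well. With a minimum of 1000 CPM, 133 genes counted as abundant, among them 9 members. Of these genes 90 were lower and 11 higher, and their median was -0.64 on the log2 scale. Whether plasma protein genes fell more than other genes of like abundance was not tested. Of 26 other genes of proteins that hepatocytes secrete, 18 fell and none rose, and the median of the 26 was -0.73 on the log2 scale. Across all settings tried, 0 to 2 of them were called higher. The albumin gene Alb fell from 73880.2 ± 9066 to 33491 ± 3673 CPM (log2 fold change -1.14), and Serpina6, the corticosteroid carrier, fell by 1.96, Itih1 by 1.34, Plg, the plasminogen gene, by 1.13 and Serpinc1, the antithrombin gene, by 1.12 on the log2 scale. Mean log2 CPM over the 26 genes was 11.55 ± 0.128 in WT and 10.86 ± 0.171 in OGT-deficient liver, a difference of -0.69.

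Set against that mean within each library, 7 members were relatively higher and 2 relatively lower (two-sided exact permutation test, adjusted over the 10). Apoa4 gained 3.95 and Apob 1.02 on the log2 scale. Apoa5 (0.68), Apoe (0.61), Apoc3 (0.60), Apoc1 (0.55) and Apoh (0.27) gained less, with exact permutation p = 0.0317 for Apoh and 0.0159 for the others. Apom (-1.02) and Apoa1 (-0.49, both exact permutation p = 0.0159, adjusted p = 0.0198) fell further than the mean of the list, though single genes of it, Serpina6 for both and Itih1 for Apoa1, fell more. Apoa2 (-0.11, exact permutation p = 0.571) was not called against them. The list was called mostly as lower, so a relative gain here does not mean a higher level. Its mean fell by 0.69 on the log2 scale, while the median log2 fold change over all genes tested was 0.02. A gene at that median would thus gain against the list too. The median of the abundant genes, which include 9 members, was -0.64, close to the fall of the list. Whether the count of 7 is particular to the members was not tested. The share of all genes that gain against the list was not computed. With Alb alone as the reference only Apom was lower (-0.58), and Apoa1 was at -0.05 (exact permutation p = 0.619). With the median of the list, Apoh and Apoc1 lost their calls.

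Markers of cells other than hepatocytes moved in the same livers. Of 15 stellate cell markers 13 rose and none fell, with sums of 370.2 to 684 CPM in WT livers and 1241 to 1538 CPM without OGT, and of 12 tested bile duct cell markers 11 rose and 1 fell, with sums of 124 to 183 and 324 to 463 CPM. Acta2, the smooth muscle actin gene, went from 1.52 ± 0.737 to 9.01 ± 1.98 CPM, and Epcam, an epithelial adhesion gene, from 1.46 ± 0.326 to 14.9 ± 4.91 CPM. The part of the cell make-up in the members' changes was not tested.

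Other apolipoprotein genes also moved both ways. Of 14 tested of 22, Clu (log2 fold change 0.46) and Apol9a (0.59) rose and Apoc4, Apol7a, Apol9b, Saa3 and Saa4 fell, with a median of -0.36. Clu, which encodes clusterin, also called ApoJ, went from 1660.2 ± 113 to 2278 ± 147 CPM, with no overlap. Saa4, the constitutive serum amyloid A of HDL, fell from 231 ± 33.7 to 73.9 ± 16.3 CPM (log2 fold change -1.64). Saa1 (-0.33, adjusted p = 0.131) and Saa2 (0.27, adjusted p = 0.152), the acute-phase members, were not called, and 32.1% and 31.8% of their stretches of 50 bases recur in another listed gene. Apof, an inhibitor of lipid transfer at 1029 ± 121 and 1141 ± 130.0 CPM, and Apon were not called. Apol9b, which shares 51.4% of its stretches with Apol9a, and Apol7a, at 14.9%, are uncertain. The rise of Apol9a is uncertain too, since the stretches shared with Apol9b lie in its transcripts. With plain library totals 4 of the 14 were higher and 3 lower, and Apol9b was not called (-0.05, adjusted p = 0.566).

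With TMM scaling, most genes listed for building the ApoB particle fell, while Apob was not called. Of 15 genes of assembly and secretion 10 fell and Tm6sf2 rose, with a median of -0.38. Under plain library totals 4 of the 15 fell and 4 rose, and Apob was called higher. Ces1d, a lipase of the endoplasmic reticulum that frees stored triglyceride for secretion, fell from 499 ± 105 to 46.4 ± 4.50 CPM (log2 fold change -3.43). Aadac, a related lipase, fell by 1.29, Dgat2, which makes triglyceride, fell by 0.93 and Mia2, a receptor for bulky cargo at exit sites, fell by 0.73 on the log2 scale. Mttp, a gene picked with its values known, encodes the transfer protein that loads ApoB with lipid. It averaged 411 CPM in WT and 344 CPM without OGT (edgeR adjusted p = 0.0276 for a log2 fold change of -0.26, SE 0.092). This fall is smaller than the shift of 0.339 that plain library totals give to the median over all genes.

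ApoB messenger RNA is edited in mouse liver by an enzyme complex whose transcripts changed in both directions. Apobec1, the deaminase, rose from 13.4 ± 1.39 to 18.9 ± 1.49 CPM (log2 fold change 0.49), while its partners A1cf and Rbm47 fell by 0.67 and 0.98, and Syncrip was not called (-0.03). Editing itself cannot be read from counts per gene.

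Receptors and plasma enzymes split as follows. Of 13 tested genes of lipoprotein receptors and uptake, 5 rose (Lsr, Cd36, Lrp2, Vldlr and Lrp8) and 4 fell, Lrpap1 among them, with a median of -0.18. Lsr, the lipolysis-stimulated receptor for ApoB and ApoE particles, rose from 216 ± 10.5 to 389 ± 31.2 CPM, and the fatty acid transporter gene Cd36 from 30.5 ± 3.51 to 62.2 ± 12.8 CPM. Lrp2, a receptor scarce in WT liver at 0.318 ± 0.20 CPM, reached 4.24 ± 1.22 CPM. Lrpap1, a chaperone of these receptors, fell by 0.80 on the log2 scale.

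Of 15 genes of HDL formation and plasma remodelling 10 fell and Lpl rose, with a median of -0.36. Pon1, an esterase that travels on HDL, fell from 666 ± 97.5 to 282 ± 36.8 CPM, the endothelial lipase gene Lipg fell by 1.29 and Lmf1, a lipase maturation factor, fell by 1.18 on the log2 scale. Lpl, which encodes lipoprotein lipase, rose from 59.5 ± 25.3 to 171 ± 20.1 CPM (log2 fold change 1.52). Genes of transcription regulators known for apolipoprotein promoters were mostly lower: 20 of 24 fell and Ppargc1a rose, with a median of -0.68. Ppara fell from 405 ± 36.2 to 228 ± 14.8 CPM, and Nr5a2 (-0.78), Nr1h2 (-0.72) and Nr2f2 (-0.62) fell as well. The call of Ppargc1a was lost with the replicate number as a block and without any of WT 2, WT 3, WT 5 or OGT-deficient 2. With plain library totals the counts that fell went down to 4 of 15 for assembly, 4 of 15 for HDL genes and 2 of 13 for receptors. The counts that rose went up to 4 for assembly, 2 for HDL genes and 6 for receptors.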

How the data were processed

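RNA sequencing libraries of 9 mouse livers, 5 WT and 4 OGT-deficient, were analysed, with each library taken as a separate mouse as the design text gives equal numbers. The files deposited by the authors give unnormalized read counts for 24421 gene symbols per library, and 5 summary lines, which were left out of library sizes and tests. The submitters' processing notes name the tools TopHat2 (2.1.0) and HTSeq (0.9.1) and the build mm10 (GRCm38). Neither annotation release nor strand setting is given in the sources used here.

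Counts were filtered (filterByExpr), scaled (TMM) and tested in edgeR 4.0.16 (R 4.3.3) with glmQLFit and glmQLFTest on group alone and Benjamini-Hochberg adjustment over 14104 genes, threshold 0.05, after a check on simulated data. A prior count of 2 enters log2 CPM. The SE is the log2 fold change over the root of F, and intervals use the t quantile of the fit. Ratios and differences from the 26 secreted-protein genes were tested with exact permutation (scipy 1.17.1). Coordinates and lengths are from GENCODE release M21 and promoters from RefSeq. Figures used matplotlib 3.10.9.

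All 10 members, every tested other apolipoprotein, the 4 tested genes of smallest p in each other list, Ogt and Alb are named by rule. Members and lists were chosen with earlier results of these data known, and so support nothing on their own. Genes named only to complete a small count or to show what makes up a sum, and neighbours in the clusters, were chosen after their values were seen. Alternatives were DESeq2 1.42.0 and limma 3.58.1 voom, 3 other scalings, 2 other filters, the scale without the 30 most abundant genes, the replicate number as a block, another prior count, other references, other lengths, and leaving out each library. Single values of some genes of the receptor list are not reported here.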

Additional observations from a re-analysis of the deposited data

Results flagged for a closer look

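Apom in OGT-deficient 1 measured 60.6 CPM, far below the other OGT-deficient libraries, which lay between 121 and 130.1 CPM. The gap to the nearest of them was 0.865 of the group's whole range, above the 95% critical value of Dixon's test for 4 samples. It was the 1 library that stood apart in 24 groups checked (12 genes in 2 groups), where chance gives about 1 in 20. Without that library Apom still fell, with a log2 fold change of -1.47.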

How the results depend on the processing

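Of 1253 values for 70 named genes over 18 alternative settings, 1230 kept their direction where called and their side of the threshold, 12 lost a call, 11 gained one and 0 called values turned sign. The count of members that fell stayed at 4, or 3 with library totals, and that of members that rose was 1, but 2 with upper-quartile factors, 4 with library totals only, and 1 to 2 with a library left out (2 without WT 1, where Apob was called). Genes of the other lists that fell numbered 74, but 45 with library totals only. Of all calls 51.8% were higher with TMM, 62.5% with upper-quartile factors and 78.5% with library totals. Changed ratios numbered 33 of 45, and 0 to 32 with a library left out; the 0 follows from the fewer splits. Members lower against the mean of the other secreted-protein genes numbered 2, and 1 with Alb alone as the reference. No pairing by replicate number was seen: same-numbered libraries correlated at -0.10 to 0.10 in their deviations from group means. Of 4 OGT-deficient libraries, 1 correlated best with its own number. A weak pairing would not be seen with so few libraries. With the replicate block, 4 members fell and 1 rose, and calls over all genes went from 8614 to 7869. Counts were deep for all members, so depth limits none of their values.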
